A study of Mus musculus with 8 samples.

Results

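Gene deserts are long stretches of the genome without protein-coding genes, and in mouse bone marrow they hold distal enhancers of several regulators of blood formation. The assay for transposase-accessible chromatin with sequencing (ATAC-seq) marks DNA that the Tn5 transposase can reach, which includes active promoters, enhancers and sites bound by architectural proteins. The regions described here are the autosomal stretches called accessible in common myeloid progenitors whose nearest protein-coding gene body was over 100 kb away. The F-Seq peak lists of all 8 libraries were merged where peaks overlapped or touched, giving 203535 autosomal regions, and 19653 of them (9.66%) met the distance rule. Another 116671 regions overlapped a protein-coding gene body, and 67211 were intergenic but within 100 kb of one.

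Bone marrow of wild-type mice of the strain C57BL/6 was sorted into 4 populations, with 2 libraries each. They are named here as in the sample titles and defined by the sorted phenotype. Of these names only C10 also occurs in the series' design text, which otherwise lists C11, C17 and C3. No age or sex is given. All were KIT+ and CD16/32-, the surface phenotype of early myeloid progenitors. C2 was CD34bright and positive for CD41, an integrin of the megakaryocyte lineage, and for the tetraspanin CD9. C13 was CD34dim and negative for both CD41 and CD9. C10 and C18 were CD34dim and positive for both, and were parted by CD48, bright in C10 and dim in C18. Each preparation used 40000 to 50000 cells, with TDE1 as the transposase and digitonin to permeabilise them. Whether replicate libraries are from different animals is not stated, so p-values measure only the spread between libraries, which may be technical. The lists give no read counts, so sequencing depth is unknown.

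Every F-Seq list held 100000 peaks, whereas the HOMER lists of the same libraries held 171712 and 196264 peaks in C2, 252844 and 249132 in C13, 235812 and 260118 in C10, and 72379 and 83548 in C18. The F-Seq peaks covered 87.4 and 89.0 Mb of the autosomes in C2, 95.4 and 98.4 Mb in C13, 92.0 and 97.0 Mb in C10, and 61.5 and 77.6 Mb in C18. Both C18 libraries therefore stood apart from the other 6 in either caller's output. All 7 sort marker loci had a peak in all 8 libraries, and so did 4 of 5 lymphoid, 3 of 3 macrophage and 3 of 3 stromal or endothelial marker loci, so an accessible locus did not separate these cell types. The summed covered length of the macrophage loci was on average 7.52 kb (C2), 12.6 kb (C13), 8.13 kb (C10) and 3.57 kb (C18), and that of the stromal and endothelial loci 11.7, 19.3, 12.4 and 8.09 kb in the same order. Both lists were thus highest in C13 and lowest in C18, and their part in the results was not tested.

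Some desert regions lie on promoters of RNA genes, and 3 of these are shown because they name what a region without a protein-coding neighbour can be. Morrbid is a mouse long noncoding RNA (lncRNA) of short-lived myeloid cells that acts on its neighbour Bcl2l11, which encodes the cell death protein Bim. Mexis is a macrophage lncRNA beside Abca1, a cholesterol transporter, and Lncpint is an lncRNA induced by p53. Each sequence runs from 250 bases before to 50 bases after the RefSeq start on GRCm38.p6, all on the minus strand, with the searched motifs in capitals (AGGAAG of ETS factors, TGANTCA of AP-1 and AGATAA of GATA factors, on either strand). The Morrbid promoter is chr2:128429302-128429601, the Mexis promoter chr4:53270183-53270482 and the Lncpint promoter chr6:31218425-31218724.
Morrbid: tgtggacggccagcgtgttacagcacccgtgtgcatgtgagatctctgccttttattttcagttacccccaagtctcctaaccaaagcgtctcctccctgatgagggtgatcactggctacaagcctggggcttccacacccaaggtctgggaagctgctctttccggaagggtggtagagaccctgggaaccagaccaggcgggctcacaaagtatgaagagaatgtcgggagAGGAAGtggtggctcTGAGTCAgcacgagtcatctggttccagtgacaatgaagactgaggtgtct
Mexis: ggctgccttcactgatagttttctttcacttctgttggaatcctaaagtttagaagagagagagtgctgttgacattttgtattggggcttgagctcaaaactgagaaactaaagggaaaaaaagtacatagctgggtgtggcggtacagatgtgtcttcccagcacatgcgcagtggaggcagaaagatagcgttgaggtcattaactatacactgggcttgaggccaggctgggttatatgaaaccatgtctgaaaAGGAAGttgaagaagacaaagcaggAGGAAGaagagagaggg
Lncpint: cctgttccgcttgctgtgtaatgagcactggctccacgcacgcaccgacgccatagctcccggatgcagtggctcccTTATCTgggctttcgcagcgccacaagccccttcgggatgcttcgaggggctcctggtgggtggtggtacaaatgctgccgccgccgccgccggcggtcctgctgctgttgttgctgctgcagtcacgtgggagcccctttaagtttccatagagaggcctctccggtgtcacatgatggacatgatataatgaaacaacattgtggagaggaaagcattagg

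The Morrbid promoter lay in a desert region of 2822 bases between Bcl2l11 and Spdye4c that all 8 libraries called. Its strongest peak ranked 19788 and 24867 in C2, 33762 and 34382 in C13, 35763 and 37965 in C10, and 23787 and 39906.5 in C18, where rank 1 is the strongest of a library's 100000 peaks. Both C2 ranks were ahead of those of C13 and C10, and the C18 ranks spanned those of C13 and C10. The Mexis promoter shown lay in a region of 2215 bases called by all 8 libraries, with ranks of 18051 and 15711 in C2, 3284 and 3683 in C13, 11738 and 11513 in C10, and 45048 and 51838 in C18. Both C13 libraries had it strongest, and both C18 libraries weakest. A second Mexis promoter of the table, at chr4:53265443-53265742, had another order, with C2 ranks of 43624 and 45382, C13 ranks of 84460 and 91086 and C10 ranks of 57374 and 57075, while C18 had no peak in replicate 1 and ranked it 32062 in replicate 2. There both C13 libraries were the weakest of the 7 that called it. The Lncpint promoter region was 3710 bases long and also called by all 8, with ranks between 17993 and 28557 that overlapped between populations.

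In all, 269 desert regions (1.37%) overlapped a promoter in the RefSeq table. Of these, 93 (34.6%) were called in all 8 libraries. Among desert regions called in all 8 libraries 4.79% overlapped such a promoter, against 0.590% of those called in 1 library. The former were also wider, with a median of 1370 against 365 bases, and the shares were not adjusted for width. No matching share over all autosomal regions is set beside them. AGGAAG was present in 51.0% of the 102 promoters within desert regions called in all 8 libraries and in 35.1% of all 31396 autosomal promoters of the same length. TGTGGT, the RUNX motif, was in 27.5% and 16.7%, and AGATAA in 16.7% and 11.2% of the same sets. TGANTCA was found in 11.8% and 7.84%, and AGGGGGC, part of the CTCF motif, in 5.88% and 10.7%. Among the 1717 promoters that were also over 100 kb from a protein-coding gene but held no region, the shares were 34.4% for AGGAAG, 19.6% for TGTGGT, 18.2% for AGATAA, 10.4% for TGANTCA and 2.97% for AGGGGGC. Against those, AGATAA was the less frequent and AGGGGGC the more frequent in the desert regions called in all 8 libraries, the reverse of the order against all promoters. Motifs were searched on both strands and may overlap one another, and the median GC content was 47% for the promoters in desert regions and 53% for all promoters, so the shares are a description only. More broadly, 3787 desert regions (19.3%) overlapped the body of an annotated lncRNA gene. It was 26.8% of those called in all 8 libraries and 16.6% of those called in 1. No share over other regions or over desert DNA is set beside these, so whether they are high cannot be told.

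Few desert regions lay near a microRNA. Of 919 autosomal hairpins, 101 were over 100 kb from a protein-coding gene, and 24 of these lay within 5 kb of a desert region. The miR-29 pair is shown because its mature RNAs share the seed (bases 2 to 8, in capitals). Both hairpins are on the minus strand of the Klf14 to Mkln1 desert that also holds Lncpint, with the mature sequences at chr6:31062673-31062694 and chr6:31063025-31063047.
miR-29a-3p: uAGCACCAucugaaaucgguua
miR-29b-3p: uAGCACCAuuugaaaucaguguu

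The hairpins Mir29a and Mir29b-1 lay 2.02 and 1.68 kb from the same desert region, which 5 libraries called.

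Desert regions were called by fewer libraries than other regions. Of the 19653, 1943 (9.89%) were called in all 8 libraries and 9657 (49.1%) in exactly 1, against 19.1% and 40.5% of all autosomal regions. Of the regions that are not in deserts, 20.1% were called in all 8 and 39.5% in 1. The share called in all 8 libraries was lower farther from genes, at 11.7% at 100 to 200 kb, 8.88% at 200 to 500 kb, 7.11% at 500 to 1000 kb and 4.93% beyond 1000 kb. The single-library share was 43.9%, 50.9%, 59.7% and 68.6% over the same distances. Of the 708 desert regions just over 100 kb from a gene, 11.7% were called in all 8. Of the 822 regions just under 100 kb away, which are not desert regions, 13.3% were. Both sets lay within 5 kb of the limit. Distances had a median of 211 kb and reached 2192 kb.

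**Figure D1:**
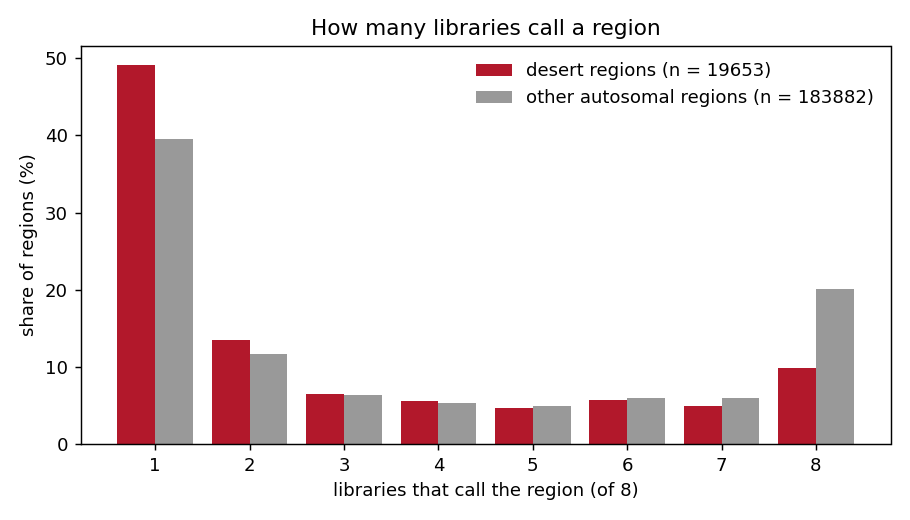
Share of regions (%) by the number of libraries that call them, for desert regions (red) and all other autosomal regions (grey). Desert regions are more often called in 1 library (49.1% against 39.5%) and less often in all 8 (9.89% against 20.1%).

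Deserts were also sparsely covered. Desert intervals, defined as the gaps between neighbouring protein-coding gene bodies less 100 kb at each end, spanned 680 Mb or 28% of the gene-bounded autosomes. They held 28.8 regions per Mb, against 119 per Mb in gene bodies and 87.8 per Mb in intergenic DNA within 100 kb of a gene.

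The single-library desert regions came mostly from C18. Its libraries supplied 3147 and 2680 of the 9657, or 32.6% and 27.8%, against 1504 and 785 from C2, 430 and 283 from C13, and 604 and 224 from C10. The lead of C18 was not particular to deserts. Outside deserts, single-library regions were 23.7% and 26.1% of the regions of the C18 libraries. They were 2.16% to 15.4% of those of the other 6 libraries. Within deserts the shares were 41.5% and 38.5% for C18, against 3.09% to 23.3%. Of all single-library desert regions, 28.6% held a HOMER peak of any library. The share was 88.5% for those called in 2 libraries and 99.6% for those called in 8. The median width was 365 bases for desert regions called in 1 library and 1370 bases for those called in 8. Outside deserts it was 401 and 1696 bases. Regions are merged from the peaks of all libraries, so those called by more libraries tend to be wider by construction.

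Within each library, desert regions were narrower and lower-ranked calls than the other regions of that library. Their F-Seq peaks had median widths of 549 and 605.5 bases in C2, 657 and 685 in C13, 678 and 696.5 in C10, and 402 and 484 in C18, against 704 and 733, 784 and 814, 773 and 805, and 501 and 631.5 bases for other regions of the same libraries. Desert peaks were narrower in 8 of 8 libraries, with a mean difference of -124 ± 21.6 bases (SD over libraries, exact two-sided sign-flip permutation test, adjusted p = 0.0156 over 4 measures). Their median rank by F-Seq signal was behind that of other peaks in 8 of 8 libraries, with a mean difference of 9021.5 ± 2519 places (same exact test, adjusted p = 0.0156).

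The other library of the population called 65.5% and 65.9% of desert regions in C2, 87.8% and 92.6% in C13, 82.0% and 84.9% in C10, and 41.4% and 45.0% in C18. The matching shares of other regions were 74.6% and 73.9% in C2, 92.9% and 92.0% in C13, 87.7% and 86.0% in C10, and 59.8% and 58.2% in C18. The share was lower in deserts in 7 of 8 libraries, with a mean difference of -7.49 ± 6.19 percentage points (SD over libraries, exact sign-flip test, adjusted p = 0.0208). The 2 libraries of a population share the regions called in both, so this p takes 8 values as independent where 4 are. Averaged per population the share was lower in deserts in 4 of 4, with the same mean (SD 6.16, n = 4, exact two-sided sign-flip p = 0.125, the smallest that 4 populations allow). The gap was widest in the C18 libraries, and without them the mean difference was -4.66 points (same exact test, adjusted p = 0.0625). Leaving out any 1 library of C2, C10 or C18 also put it above the threshold (adjusted p = 0.0833 each by the same exact test).

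Peaks that HOMER called in the library itself overlapped 73.0% and 88.4% of desert regions in C2, 98.1% and 97.6% in C13, 95.3% and 97.9% in C10, and 27.9% and 29.0% in C18. For other regions the shares were 72.7% and 81.9% in C2, 94.6% and 93.8% in C13, 90.5% and 94.4% in C10, and 44.9% and 44.0% in C18. The mean difference was -1.19 ± 9.30 points and did not pass the exact sign-flip test (adjusted p = 0.703). It was positive in 6 libraries and negative in both C18 libraries, and without C18 it was +3.87 points (same exact test, adjusted p = 0.0417).

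**Figure D2:**
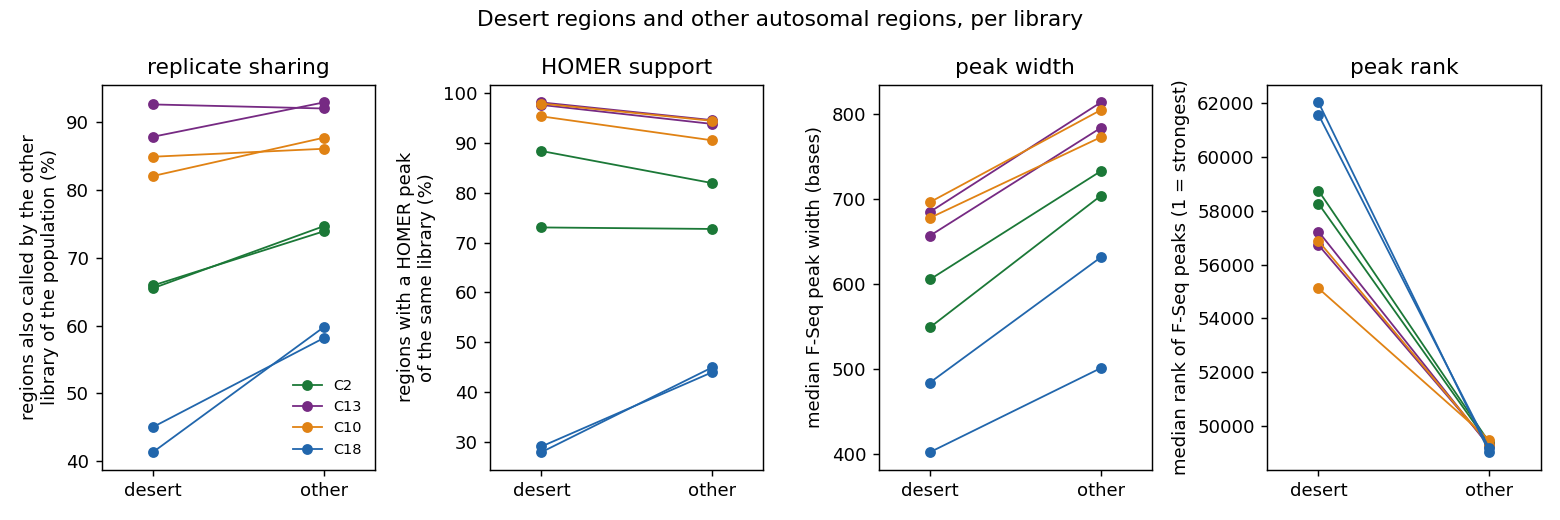
Each line joins a library's value over its desert regions (left) and over its other autosomal regions (right) for replicate sharing (%), HOMER support (%), median F-Seq peak width (bases) and median peak rank. Width was lower and rank was further back in deserts in 8 of 8 libraries, and HOMER support was lower in deserts only in the 2 C18 libraries.

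The desert share of a library's autosomal regions was 7.19% and 7.09% in C2, 8.13% and 7.68% in C13, 8.24% and 7.85% in C10, and 8.47% and 7.63% in C18. Both C2 libraries were below the other 6, and the 3 CD34dim populations overlapped. The highest and lowest population means differed by 0.908 percentage points. The spread between populations did not pass the exact one-sided permutation test over all pairings of the 8 libraries (p = 0.2). By the same exact test it passed with the 50000 strongest peaks per library (p = 0.0381) and with the HOMER lists (p = 0.0286). The test does not use which populations are high or low, so these passes do not show that C2 was lowest there. A sorted population is a bulk sample, so a different share of cells with an accessible region and a different accessibility per cell cannot be told apart.

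Libraries of the same population resembled each other in deserts more, on average, than libraries of different populations, but not in every population. The Jaccard index, the number of desert regions called in both libraries over the number called in either, was 0.489 within C2, 0.820 within C13, 0.716 within C10 and 0.275 within C18. Within populations it averaged 0.575, against 0.388 between populations, a difference of 0.187 (exact one-sided permutation test over pairings, p = 0.0095, the smallest this design can give). Over the other autosomal regions the averages were 0.659 and 0.519. The C13 and C10 pairs were above every pair of different populations, the highest of which was 0.581. The C2 pair was below the mean index between C10 and C2 (0.520), and C2 replicate 2 had 0.551 and 0.581 with the C10 libraries. The C18 pair was below the mean index between C10 and C18 (0.321) and between C18 and C2 (0.304). Without C10 replicate 1 the difference was 0.158, and without C10 replicate 2 it was 0.167 (p = 0.0762 each by the same exact test).

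Private desert regions, which 1 population called in each of its libraries and no other library called, numbered 70 in C2, 1215 in C13, 309 in C10 and 327 in C18. They were 0.356%, 6.18%, 1.57% and 1.66% of desert regions, beside backgrounds of 0.519%, 4.66%, 0.946% and 1.40% among all autosomal regions. The C13 count was the highest of all 28 pairs of libraries (exact one-sided rank, p = 0.0357, the smallest 28 pairs allow). By the same rank the p was 0.0714 for C18, 0.107 for C10 and 0.179 for C2. The 28 pairs include the other populations' own pairs, so with C13 first no other population could reach 0.0357. These p-values therefore do not decide whether C18 or C10 exceeded mixed pairs. The highest pair of mixed populations had 71, below the C18 and C10 counts and above that of C2. Of the desert regions called in both C13 libraries 18.3% were private, against 10.4% of other regions called in both. Without the C18 libraries the private counts were 142 in C2, 1299 in C13 and 481 in C10.

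Of the private C13 and C10 regions, 96.1% and 90.3% had a HOMER peak in both libraries, while 49.7% and 50.2% also had one in another population. Each library's own HOMER peaks overlapped 98.1% and 97.6% of all its desert regions in C13. In C10 they overlapped 95.3% and 97.9%. High HOMER support was therefore not particular to the private regions of C13 and C10. Of the private C18 regions 8.26% had a HOMER peak in both C18 libraries and 18% in another population. Of the 70 in C2, 50% had one in both C2 libraries. Being private in the F-Seq lists therefore did not mean being private in the HOMER lists.

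The 4 private C13 regions with the best mean rank lay at chr4:153808273-153809918 between Ajap1 and A430005L14Rik, chr3:38009015-38009900 between Gm5148 and Ankrd50, chr15:32048653-32049414 between Atpsckmt and Tas2r119, and chr6:50945366-50946381 between Npvf and Gm38821. Their ranks in the 2 C13 libraries ran between 16003 and 24952, and each also had a HOMER peak in at least 1 C10 library. In C10 the leading private region, at chr11:18325773-18326587, lay 372 kb from Etaa1 and, on the other side, 554 kb from Meis1. Meis1 encodes a homeobox partner of HOX proteins in stem cells. The region had ranks of 41289 and 49980 and a HOMER peak in the C10 libraries and no others. In C2 one of the 4 leading private regions, at chr12:25283760-25284313, was 188 kb from Id2, an inhibitor of E proteins, with ranks of 47436 and 51660. In C18 the leading one, at chr16:7877667-7878252 between Rbfox1 and Tmem114, ranked 3211 and 3387 but had no HOMER peak in either C18 library, and had one in both C13 libraries. The leading private C18 regions were thus higher in the F-Seq ranking than those of the other populations, without a HOMER peak in C18 in all 4.

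Among the regions called in all 8 libraries, the one with the best mean rank was chr8:73349873-73355205, 5333 bases long and 586 kb from F2rl3, a thrombin receptor of platelets. Its ranks were 419 and 450 in C2, 122 and 533 in C13, 218 and 307 in C10, and 726 and 2490 in C18. The region at chr13:4770953-4773295, 1088 kb from the zinc-finger factor gene Klf6 on one side and 162 kb from Akr1e1 on the other, ranked between 110 and 1376. At chr2:9593403-9594714, 262 kb from Gata3, a region of 1312 bases ranked 808 and 1008 in C2, 882 and 917 in C13, 183 and 233 in C10, and 2796 and 1632 in C18. Gata3 encodes a GATA factor of T cells and of early haematopoiesis. In that region both C10 libraries were ahead of, and both C18 libraries behind, all others. HOMER peaks of all 8 libraries overlapped each of these 3.

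The members were unevenly spread. Of 1423 desert intervals 1220 held a desert region, with a median of 9, and 50% of the members lay in 186 intervals that held 31 or more each. The 10 with most held 1305. The leading interval, between Adgrl2 and Adgrl4, which encode adhesion receptors, had 191 regions in 2249 kb, followed by 161 in the T cell receptor alpha and delta cluster (Gm36448 to Dad1), 152 between Zeb2 and Acvr2a, 131 in the immunoglobulin heavy chain cluster (Adam6a to Zfp386) and 124 between Bcl11a and Fancl. The receptor clusters count as deserts because their gene segments are not annotated as protein-coding genes. All 7 antigen receptor intervals together held 365 members.

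A list of 73 blood regulators, drawn up with results of these data known, was set beside a list of 57 developmental genes of other tissues. In all, 38 of the 72 blood regulators on the table's autosomes flanked a desert with members. Their 52 intervals held 1899 desert regions at 61.9 per Mb, with 10.95% called in all 8 libraries and 39.9% in 1. The 62 intervals beside developmental genes held 1266 at 17.7 per Mb, with 6.95% in all 8 and 59.4% in 1. All deserts had 28.8 per Mb, 9.89% and 49.1%.

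Zeb2 encodes a zinc-finger repressor needed for the differentiation of several blood lineages. Its desert towards Acvr2a was 3497 kb long and 17 of its 152 regions were called in all 8 libraries. The members formed 2 dense stretches with a sparse one between them. Within 1500 kb of Zeb2 lay 84 members, 12 of them in all 8 libraries, and 3000 to 3500 kb away lay 40, of which 3 were in all 8. From 1500 to 2500 kb there were 13, none called in all 8. C10 called 25 and 25 of the 40 distal members, against 15 and 11 in C18, with 18 and 18 in C2 and 19 and 18 in C13.

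**Figure D3:**
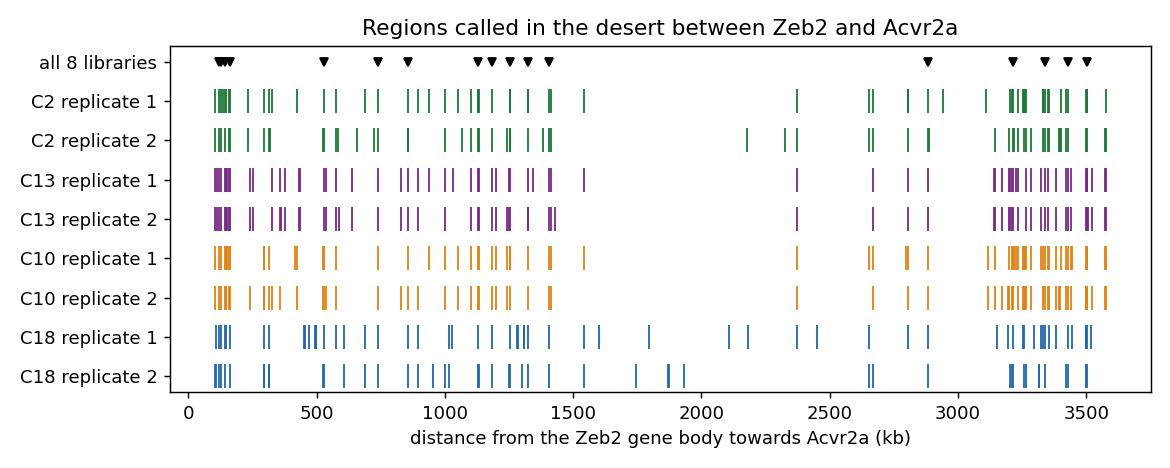
Desert regions between Zeb2 and Acvr2a by distance from the Zeb2 gene body (kb), one row of ticks per library, with triangles for the 17 regions called in all 8 libraries. The 40 regions at 3000 to 3500 kb stand apart from the 84 within 1500 kb.

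Bcl11a encodes a repressor of fetal globin genes and a factor for B cell development. Of the 124 members in its desert, 45 lay within 500 kb of Bcl11a, 9 of them called in all 8 libraries. Another 27 lay 500 to 1000 kb away (2 in all 8) and 13 at 1000 to 1500 kb (1 in all 8). At 1500 to 2000 kb there were 26 (6 in all 8), and at 2000 to 2500 kb 13 (2 in all 8). In the Myc desert towards Gsdmc, 28 members lay within 250 kb of Myc, 19 at 250 to 500 kb and 22 at 1500 to 1750 kb. Of the 12 called in all 8 libraries, 4 were within 250 kb of Myc and 8 at 1500 to 1750 kb.

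Covered length per desert interval was then compared between populations with limma, in 1 fit over 18968 features (17824 gene loci and 1144 desert intervals), as log2(scaled covered bases + 200). The contrasts set C2 and C13 each against the averaged CD41+ CD34dim populations, C10 and C18, and C10 against C18. Scaling brought each library's covered length to the mean of all 8. At an adjusted p under 0.05, 1 of the 1144 intervals was higher in C2 (0.0874%, background 0.0105% of all features) and 1 lower (background 0.0105%), together 0.175% beside 0.0211%, while 300 had an unadjusted p under 0.05. In C13, 60 intervals were higher (5.24%, background 3.15%) and 85 lower (7.43%, background 3.98%), together 12.7% beside 7.13% of all features. In C10 against C18, 157 were higher (13.7%, background 7.97%) and 129 lower (11.3%, background 13.8%), together 25% beside 21.7%. No test was made of these differences from the background.

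The split by direction depended on scaling. Unscaled, C13 had 150 higher and 77 lower intervals, and C10 against C18 had 315 higher and 94 lower. With the HOMER lists the splits were 367 to 24 and 635 to 17. The median of all features moved with scaling, being -0.07 scaled and 0.18 unscaled for C13, and -0.15 scaled and 0.26 unscaled for C10 against C18. Single libraries also mattered, as no interval was called for C13 without C13 replicate 2 and 5 without C13 replicate 1, and none for C10 against C18 without C10 replicate 1, 33 without C10 replicate 2.

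Beside the blood regulators, 14 of the 52 intervals (26.9%) were higher in C10 than in C18 and 4 (7.69%) lower, beside 7.97% and 13.8% of all features and 13.7% and 11.3% of all intervals. Their median log2 difference was 0.33, against 0.09 over all intervals and -0.15 over all features. In C13, 6 were higher and 2 lower, together 15.4% beside 7.13% of all features and 12.7% of all intervals, with a median of 0.17 against -0.09 over all intervals. In C2 none passed. Of the 62 intervals beside the developmental genes, 6 (9.68%) were higher and 8 (12.9%) lower in C10 than in C18, with a median of -0.19. In C13, 3 were higher and 5 lower, together 12.9% and so near the 12.7% of all intervals, with a median of -0.33, and 1 was lower in C2. These shares are a description of lists drawn up with results known, and no test was made of them.

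The desert between Prl5a1 and Sox4 was higher in C10 than in C18. Sox4 encodes an HMG-box factor of progenitors and early B cells. The scaled covered length was 47.7 and 43.1 kb in C2, 43.9 and 47.6 kb in C13, 58.6 and 51.2 kb in C10, and 26.0 and 26.8 kb in C18. Both C18 libraries were far below the other 6, and both C10 libraries were above them. C10 exceeded C18 by 1.05 ± 0.12 on the log2 scale (SE, limma, adjusted p = 0.00722). Of the 26 members within 200 kb of Sox4, C10 libraries called 18 and 18 and C18 libraries 8 and 10. C2 libraries called 15 and 18 of them and C13 libraries 17 and 20, so C10 did not stand out there. The call was lost in 1 of 18 alternatives, without C10 replicate 1 (adjusted p = 0.0721).

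Between Cetn3 and Mef2c, which encodes a MADS-box factor of lymphoid and megakaryocytic cells, the covered length was 35.1 and 32.9 kb in C10 and 18.3 and 19.7 kb in C18, a difference of 0.83 ± 0.11 (adjusted p = 0.00912). C2 libraries, with 26.1 and 23.6 kb, and C13 libraries, with 30.0 and 27.0 kb, lay between them. The Tox to Car8 desert, beside the HMG-box gene Tox of T cell development, had 18.7 and 19.4 kb in C10 and 9.61 and 10.3 kb in C18 (0.92 ± 0.14, limma, adjusted p = 0.01). C2 had 11.8 and 13.6 kb there, and C13 14.1 and 17.3 kb. The Zeb2 desert had 57.7 and 52.9 kb in C10 and 43.9 and 32.4 kb in C18 (0.55 ± 0.15, limma, adjusted p = 0.0452). With 48.2 and 49.4 kb in C2 and 51.3 and 51.6 kb in C13, these populations were nearer to C10. The Zeb2 call was lost in 11 of 18 alternatives. The desert with most members, Adgrl2 to Adgrl4, was higher in C10, with 87.7 and 75.7 kb against 51.4 and 50.4 kb in C18, while C2 had 64.8 and 61.2 kb and C13 53.3 and 47.8 kb (C10 minus C18 0.68 ± 0.13, adjusted p = 0.0152). The reverse direction was seen beside Cxcr4, the receptor that holds progenitors in the marrow, where C10 had 12.2 and 12.8 kb and C18 19.6 and 16.9 kb (-0.53 ± 0.11, adjusted p = 0.0207), although the call was kept in 8 of 18 alternatives and its sign changed with the HOMER lists (+0.41).

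**Figure D4:**
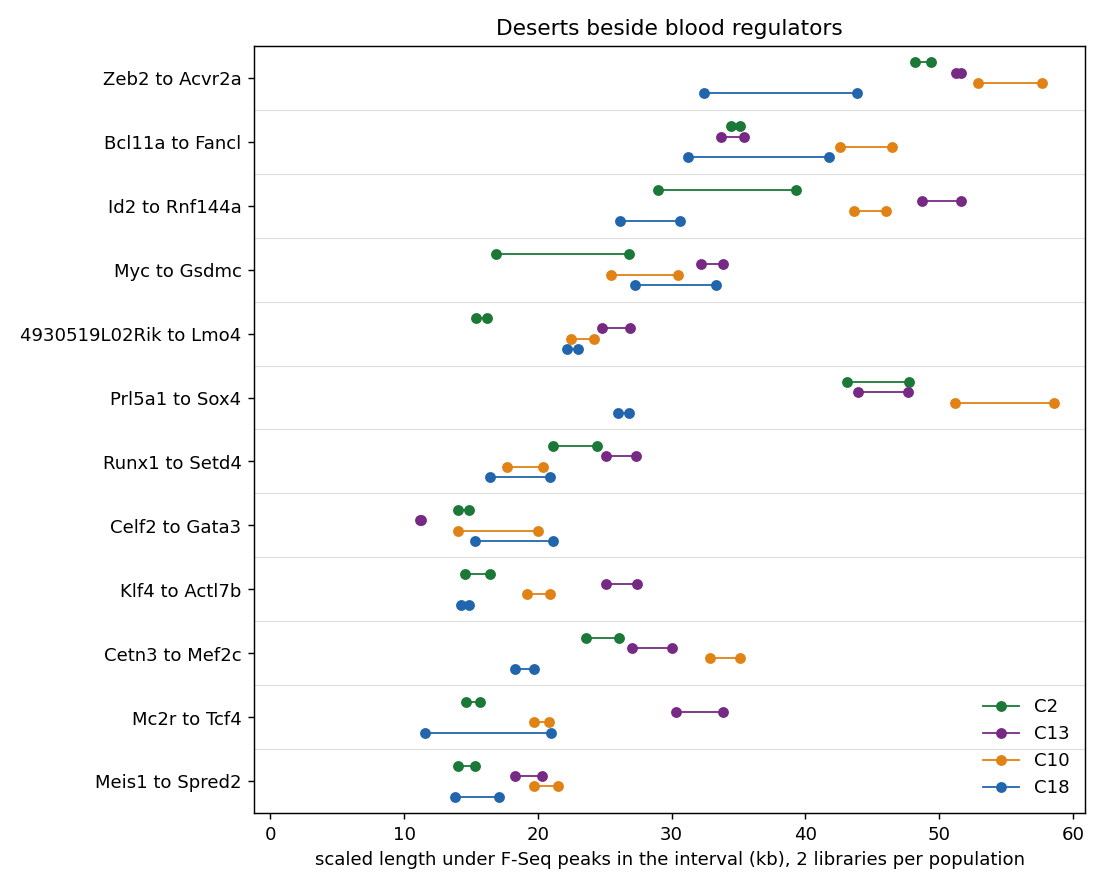
Scaled length under F-Seq peaks (kb) in the 12 deserts with most members beside blood regulators, with a point for each of the 2 libraries of each population joined by a line. C18 is apart from the other populations in Prl5a1 to Sox4, at 26.0 and 26.8 kb, and C13 is highest in Klf4 to Actl7b.

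C13 had the higher covered length between Klf4 and Actl7b, with 27.4 and 25.1 kb, against 19.2 and 20.9 kb in C10 and 14.8 and 14.2 kb in C18, and C2 had 14.6 and 16.4 kb. Klf4 encodes a Kruppel-like factor of monocytes. The difference from those 2 populations was 0.62 ± 0.10 (limma, adjusted p = 0.0191), without overlap between libraries. The call was lost without either C13 or either C10 library and without C18. The Sec61b to Nr4a3 desert, beside a nuclear receptor gene of myeloid cells, was likewise higher in C13, with 12.5 and 13.6 kb against 9.09 and 8.97 kb in C10 and 7.22 and 4.29 kb in C18 (0.86 ± 0.19, adjusted p = 0.0435). That call was lost in 10 of 19 alternatives, among them the replicate block (adjusted p = 0.0526) and leaving out either library of C2, C13 or C10 (limma, adjusted p up to 0.313). In the Sel1l to Gm40892 desert, C13 had 15.1 and 16 kb, C10 11 and 9.47 kb, and C18 5.43 and 5.05 kb, with 5.15 and 5.20 kb in C2 (C13 minus the mean of the CD41+ CD34dim pair 1.07 ± 0.11, adjusted p = 0.00721).

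The Etaa1 to Meis1 desert was lower in C13, with 3.74 and 2.92 kb, against 9.84 and 8.24 kb in C10 and 11 and 12.8 kb in C18. C2 had 7.20 and 5.57 kb, and both C13 libraries were below the other 6. The difference was -1.59 ± 0.17 (limma, adjusted p = 0.00744), but with the HOMER lists it was -0.33 and not called (limma, adjusted p = 0.635). HOMER peaks there numbered 15 and 16 in C13, 35 and 52 in C10, and 1 and 7 in C18. None of the 41 members of this desert was called in all 8 libraries. On the other side of Meis1, the desert towards Spred2 had 20.3 and 18.3 kb in C13, against 21.5 and 19.7 kb in C10 and 13.8 and 17.1 kb in C18, and was not called (0.12 ± 0.12, adjusted p = 0.563).

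Among the intervals with the smallest p for C13, the one with most members was Stpg2 to Pdha2, with 6.12 and 4.94 kb in C13, against 23.7 and 20.3 kb in C10 and 18.7 and 18 kb in C18. C2 had 22.6 and 20.8 kb, so in the F-Seq lists both C13 libraries were far below the other 6. The HOMER lists placed 37 and 25 peaks there in C13, 39 and 48 in C2, and 83 and 83 in C10. In C18, whose HOMER lists were the shortest, they placed 11 and 11, so C13 was not below C18 by that count. The log2 difference of C13 from the mean of C10 and C18 was -1.83 ± 0.12 (limma, adjusted p = 0.00471). With the HOMER lists it was -0.77 (limma, adjusted p = 0.0234). Most of the F-Seq gap was in the part of the desert 750 to 1500 kb from Stpg2. Of the 29 members there, C13 called 1 and 0, C10 12 and 10, and C18 12 and 13. Within 250 kb of Stpg2, C13 called 7 and 7 of 17 members, C10 13 and 12, and C18 7 and 4.

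Intervals called for C13 held a median of 13 members and those called for C10 against C18 a median of 11, against 10 over all intervals tested. Of the 145 called for C13, 30 had 3 members or fewer, as did 51 of the 286 for C10 against C18 and 211 of all 1144. Sox11 to Dcdc2c had no F-Seq peak in C13, against 3.67 and 2.83 kb in C10 and 2.83 and 4.46 kb in C18. Yet the HOMER lists placed 4 and 2 peaks there in C13, 18 and 14 in C10, and 0 and 2 in C18. Serpini1 to Golim4 had 2.75 and 1.96 kb in C10 and no F-Seq peak in C18, nor any HOMER peak there. For C2, the interval called lower was Gm11677 to Sox9, with 1.51 and 1.56 kb against 3.67 and 3.87 kb in C10 and 6.86 and 7.30 kb in C18 (-1.63 ± 0.15, limma, adjusted p = 0.0441). HOMER peaks there numbered 3 and 4 in C2, 12 and 19 in C10, and 1 and 1 in C18. The call was lost in 12 of 19 alternatives, among them the replicate block (adjusted p = 0.133), no scaling (adjusted p = 0.0832), the HOMER lists (-0.44, adjusted p = 0.373) and leaving out either library of C2, C13 or C10. The one called higher, Gm12887 to Gm10573, had 4.61 and 6.18 kb in C2 and 0.494 to 0.697 kb in the other 6 libraries (2.78 ± 0.25, adjusted p = 0.0441). Of its 19 members 17 were called in 1 library and none was private to C2, and the call was kept in 7 of 19 alternatives. With the 50000 strongest peaks the difference was -0.45.

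**Figure D5:**
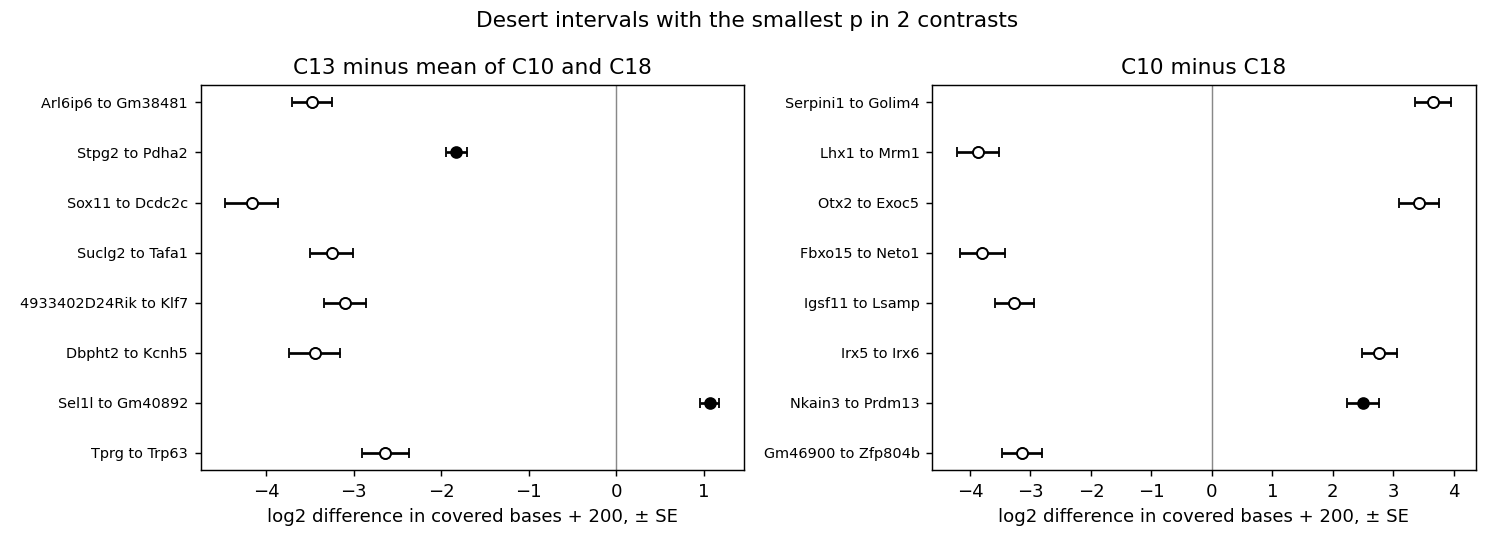
Log2 difference in covered bases with its SE for the 8 desert intervals with the smallest p for C13 set against C10 and C18 averaged (left) and in C10 against C18 (right). In C13, 7 of the 8 are below 0. Open circles (6 on the left, 7 on the right) mark intervals where C13, or on the right C10 or C18, has no F-Seq peak, so that the value is set by the pseudocount of 200 bases and is not a measured size.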

How the data were processed

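ATAC-seq peak lists of 8 libraries from 4 sorted mouse progenitor populations were used. The authors deposited an F-Seq list of 100000 peaks per library, whose signal column served only to rank peaks within that list, and a HOMER list of 150-base peaks, whose score columns carry no names per the file headers and were not used. Bowtie 1.0.0, HOMER 1.0 and the build mm10 are named in the submitters' processing notes, with no version of F-Seq given in the sources used here. Lists were called per library and give no read counts.

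F-Seq peaks were merged across libraries, and a region counted as called where a peak overlapped it by 1 base or more. Distances were taken to the 20661 autosomal protein-coding gene bodies of the RefSeq table (GRCm38.p6, the assembly of mm10). The members and gene lists were chosen with earlier results of these data known. Libraries were compared by exact permutation, and intervals with limma 3.58.1 in R 4.3.3 (4 group means, trended variance, features covered in at least 2 libraries, pseudocount of 200 bases, Benjamini-Hochberg adjustment over all features), which was tested on simulated data. Regions were handled in Python 3.11.15 with numpy 2.4.6 and pandas 2.3.3. Named regions were the 8 with the best mean rank in all 8 libraries and the 4 best private ones per population. Named intervals were the 10 with most members, up to 8 per contrast with the smallest p, and those beside blood regulators (the 12 with most members, and those called); some of these are not reported here. A search for motifs in the regions themselves was not made, since it needs a genome sequence.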

Additional observations from a re-analysis of the deposited data

Results flagged for a closer look

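The rule for desert regions covers autosomes, but the X chromosome held the same kind of region. Of 4177 regions there, 425 (10.2%) were over 100 kb from a protein-coding gene body, against 9.66% of autosomal regions. Of the 425, 45 (10.6%) were called in all 8 libraries, against 9.89% on the autosomes. No test was made of either difference.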

How the results depend on the processing

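Desert peaks were narrower and ranked further back under every alternative run. Peak width and rank were not run on the HOMER lists, whose peaks are all 150 bases with unnamed scores. Requiring 100 bases of overlap could not change a call, since regions are unions of the same peaks, and is no check.

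The difference between populations in desert share (highest minus lowest mean) was 4.44 points with HOMER and 1.24 with the 50000 strongest peaks, and passed the test there. Without the C18 libraries the Jaccard difference was 0.193 (exact permutation p = 0.0667, the smallest that 6 libraries allow), the difference in replicate sharing -4.66 and that in HOMER support 3.87. Leaving out 1 library gave Jaccard differences of 0.108 to 0.256, replicate sharing of -9.20 to -4.69 and, in 6 of 8 cases, a p above the threshold for sharing.

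Private C13 counts were 2848 with HOMER, 682 with 50000 peaks, 1967 and 631 with limits of 50 and 200 kb, and 181 with distance to any annotated gene. Private C10 counts were 975 with HOMER, then 107 (50000 peaks), 163 (200 kb), 53 (any gene) and 481 (without C18). Private C2 counts were 35, 28, 9 and 142 in those 4 settings, and private C18 counts 22 (HOMER), 195 (200 kb) and 74 (any gene). Without 1 library, private counts ran from 70 to 1579 for C2, 1253 to 1661 for C13, 323 to 921 for C10 and 329 to 3478 for C18, highest where the population kept 1 library.

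Desert intervals called for C2 numbered 6 higher and 23 lower with 50000 peaks, 6 and 33 with no filter, 10 and 48 for numbers of peaks, 1 and 3 at a pseudocount of 50, 19 and 86 without C18, and 0 in either direction with HOMER, no scaling, or ends 50 or 200 kb from genes. For C13 they numbered 117 higher and 140 lower with 50000 peaks, 367 and 24 with HOMER, 109 and 126 with ends 50 kb from genes, 28 and 56 with ends 200 kb away, and 150 and 77 without scaling. For C10 against C18 they numbered 635 and 17 with HOMER, 284 and 186 with ends 50 kb from genes, 58 and 95 with ends 200 kb away, 97 and 86 with no filter, 52 and 70 for numbers of peaks, 142 and 71 with 50000 peaks, and 315 and 94 without scaling. That contrast could not be made without C18. Without 1 library the counts ran from 0 to 23 higher and 0 to 42 lower for C2, 0 to 180 and 0 to 137 for C13, and 0 to 252 and 0 to 147 for C10 against C18, the lone library of a population then being taken to vary like the others. With the replicate number as a block (replicate block) there were 0 calls for C2, 50 higher and 78 lower for C13, and 150 and 135 for C10 against C18. The numbers did not pair the libraries, as the deviations of same-numbered libraries correlated between -0.0034 and 0.134.

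Of the 52 named calls counted here, none kept its call in every alternative, and 657 of 933 alternatives kept it; the cause was not tested. With the HOMER lists 21 of the 52 lost it. Signs turned with HOMER for C13 in Camk1g to Plxna2 (0.20) and Gm11677 to Sox9 (0.19), and for C10 against C18 in Cxcr4 to Thsd7b (0.41), Gm11677 to Sox9 (1.66), Fbxo15 to Neto1 (0.66), Irf8 to Foxf1 (2.22) and Gm46900 to Zfp804b (0.11). With 50000 peaks they turned in Gm12887 to Gm10573 for C2 (-0.45), Gm11677 to Sox9 for C13 (0.50) and Camk1g to Plxna2 for C10 against C18 (0.037, and 0.0081 without scaling). They also turned in Erbb4 to Ikzf2 for C13 without C18 (-0.037). Leaving out the antigen receptor clusters, an alternative chosen after seeing the data, changed no summary call.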
